A study of Drosophila melanogaster with 102 samples.

Results

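Old sons and daughters of control-fed mothers were compared. The series holds 102 RNA-seq samples of Drosophila melanogaster w1118, a laboratory strain with a mutation in the white gene, and asks how the mother's diet affects her progeny. Mothers spent 7 days on CD, the control diet, on HFD, rich in fat, or on HSD, rich in sugar, and were mated with males fed CD. All progeny were then kept on CD at 25 °C in light/dark cycles. The 10 samples chosen here are the 5 libraries of male progeny (m31 to m35) and the 5 libraries of female progeny (f31 to f35) of CD mothers that the labels place at day 50. They were picked by maternal diet, day and sex alone. Sons and daughters share strain, genotype, maternal diet, own diet and age, so the comparison asks how expression differs between the sexes in old adults. Each library is total RNA of whole flies. The sources used here do not say how many flies went into a library or whether they had mated. Nothing says that the libraries came from separate cultures, so the p-values measure the spread between these samples, which may be technical. The same contrast in 5 sons and 5 daughters of CD mothers at day 10, in 3 sons and 5 daughters of HFD mothers at day 50, and in 6 sons and 4 daughters of HSD mothers at day 50 was used for reference.

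In Drosophila, sex is set by the number of X chromosomes, read by the splicing factor Sxl. In females Sxl directs splicing of tra, and Tra in turn directs the female forms of dsx and fru, transcription factors that shape the body and the nervous system. In males the missing X is balanced by the MSL complex, which raises transcription of the single X chromosome. Most sex-biased RNA of an adult fly comes from the gonads and the reproductive glands. Ovaries load eggs with maternal RNA, fat body and follicle cells make yolk, and male accessory glands make the proteins of the seminal fluid.

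The libraries held 9785450 to 12976198 counts. Genes with at least 1 count numbered 13274.8 ± 153 in sons and 11617.8 ± 161 in daughters (SD, n = 5 each; exact permutation test, two-sided, p = 0.00794, the smallest that 5 against 5 allows). The labelled sexes matched their defining markers. The summed level of 5 accessory gland genes was 707 to 1578 CPM (counts scaled to library size) in sons and 0 to 0.104 CPM in daughters. The 6 follicle cell genes summed to 1.07 to 5.4 CPM in sons and 2635 to 10059.8 CPM in daughters. Testis RNA differed among the sons. The 7 testis markers summed to 25.2, 196, 195, 129.5 and 33.4 CPM in sons m31 to m35, against 3.08, 2.5, 1.33, 0.521 and 0.631 CPM in daughters f31 to f35. Sons m31 and m35 therefore stood apart from the other 3 sons in these genes, and results on testis genes are given with and without them. Because whole flies were sequenced, fewer cells of a type and less RNA per cell cannot be told apart in any result here.

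**Figure D1:**
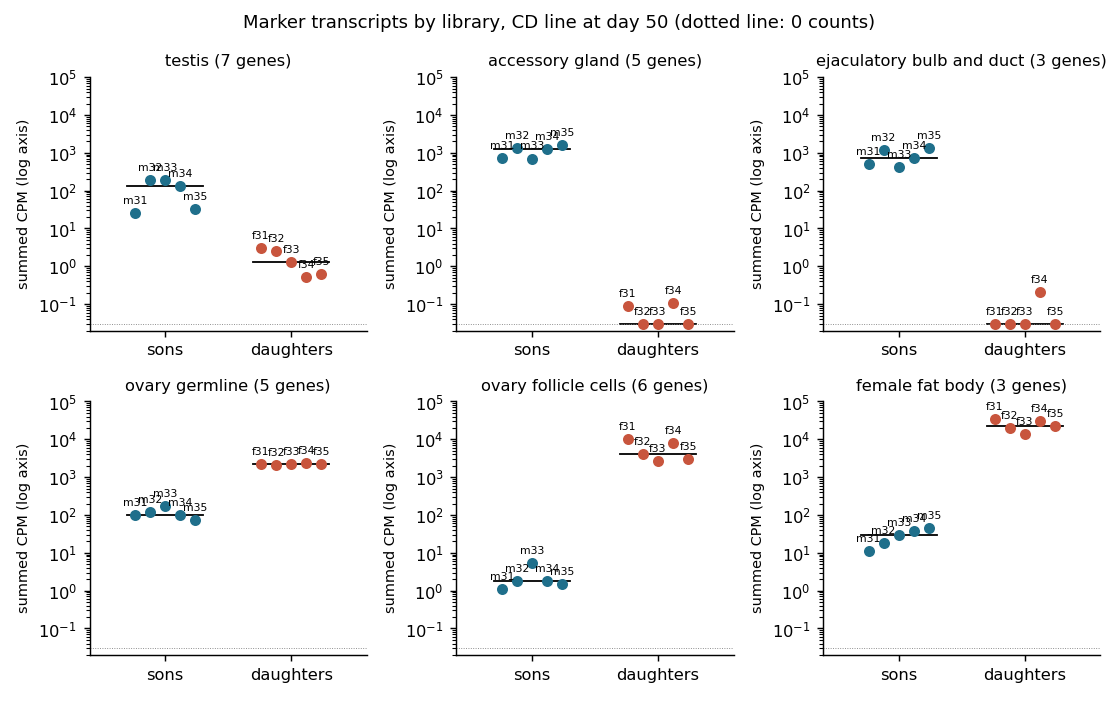
Summed CPM of marker genes of reproductive tissues in each day 50 library, on a log axis, with sons left of daughters. Testis markers reach 25.2 CPM in son m31 and 33.4 CPM in son m35 and lie between 130 and 196 CPM in the other 3 sons.

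Most genes with enough reads differed between the sexes. Of 11051 genes tested, 9730 (88.0%) passed an adjusted p of 0.05 in the quasi-likelihood test of edgeR, adjusted over all genes by Benjamini-Hochberg, which is the source of every adjusted p below. In sons 5016 genes (45.4%) were higher and 4714 (42.7%) were lower. A called difference of at least 2-fold was found for 4002 genes (36.2%) higher in sons and for 2803 (25.4%) lower in sons, and one of at least 16-fold for 722 (6.53%) and 243 (2.20%). All 5 sons lay above all 5 daughters for 4466 genes (40.4%) and below them for 4378 (39.6%), so the groups did not overlap for 80.0% of the genes. The median log2 fold change, sons over daughters, was 0.08. Each count of called genes below is to be read beside the shares of 45.4% higher and 42.7% lower.

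**Figure D2:**
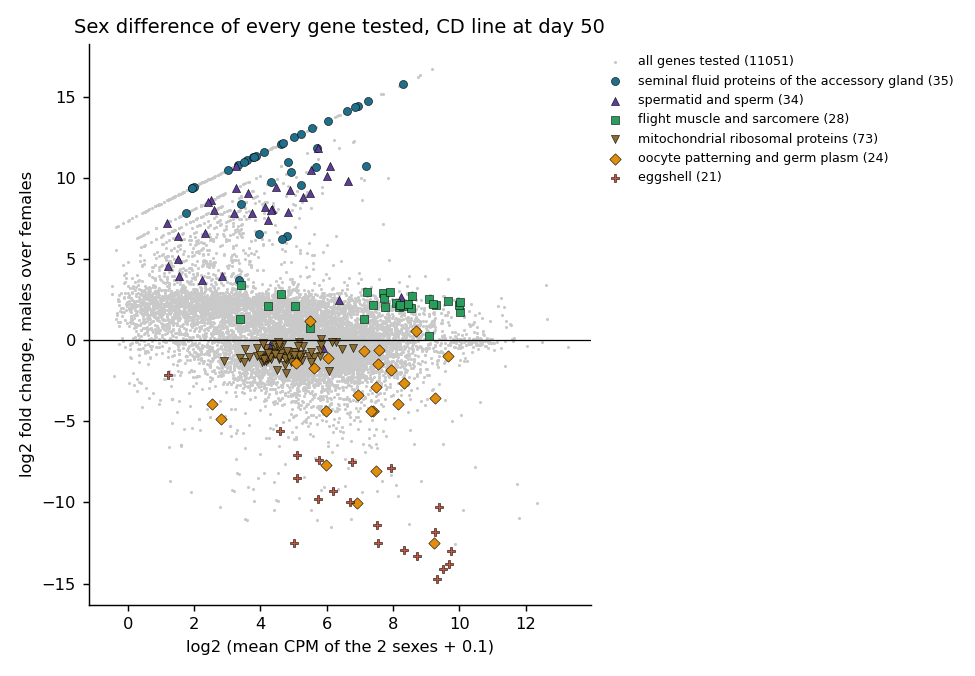
Log2 fold change, sons over daughters, of the 11051 genes tested (grey) against the log2 of their mean CPM. Colours mark the lists of seminal fluid, sperm, muscle, mitochondrial ribosomal, oocyte and eggshell genes. Seminal fluid genes lie at the top, and eggshell genes and some oocyte genes, such as osk, lie at the bottom.

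Yolk and eggshell genes were among the lowest in sons. The yolk proteins, made in fat body and follicle cells and taken up by the oocyte, were measured for Yp1 (X:10053811-10055498, plus strand, on BDGP6.54) at 2.56, 6.67, 9.4, 15.2 and 16.8 CPM in sons m31 to m35, against 14605, 8497, 6287, 12610.5 and 10103 CPM in daughters f31 to f35. No son came near the lowest daughter, and the log2 fold change was -10.01 ± 0.57 (SE; adjusted p = 2.67e-08). Yp2 averaged 3.5 ± 2.64 CPM in sons and 7079.5 ± 2631 CPM in daughters, and Yp3 averaged 14.6 ± 5.81 CPM in sons and 6874 ± 2325 CPM in daughters (SD, n = 5 each). The yolk receptor gene yl, which acts in the oocyte, averaged 0.302 ± 0.238 CPM in sons and 1883 ± 313 CPM in daughters, with a log2 fold change of -12.54 ± 0.36 (adjusted p = 3.55e-10). All 5 genes of the yolk list, which also holds the chaperone of yolk uptake boca, were lower in sons, boca by a log2 fold change of -0.76. Daughters varied among themselves in yolk RNA, with f31 highest and f33 lowest for Yp1.

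Follicle cells secrete the vitelline membrane and the chorion around the egg. All 21 eggshell genes were lower in sons, with a median log2 fold change of -10.30. The chorion gene Cp36 had 0, 0.103, 0, 0.0929 and 0 CPM in sons, against 2875, 1079.6, 566, 1441 and 488 CPM in daughters, and the 5 sons together held 2 counts. The vitelline membrane gene Vm34Ca averaged 0.0721 ± 0.0714 CPM in sons and 1464 ± 635 CPM in daughters. Daughters ranged widely in both genes, while every son stayed at or near 0. Vm26Ac was at 0 in every son and averaged 64.5 CPM in daughters. Dec, named for its defective chorion, had 0.247, 0.308, 3.68, 0.372 and 0.377 CPM in sons and 1516, 914, 684, 2540.1 and 999 CPM in daughters, with son m33 above the other sons. The smallest difference of the list belonged to pip, which patterns the egg from the follicle cells, with a log2 fold change of -2.18.

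Genes of the oocyte and of maternal RNA were lower in sons with few exceptions. The germ plasm gene osk (3R:8935126-8938395, plus strand, on BDGP6.54) had 0.247, 0.308, 0.245, 0.0929 and 0.0942 CPM in sons, against 1184, 1127, 1175, 1270.5 and 1231 CPM in daughters. Daughters were tightly grouped, every son was under 1 CPM, and the log2 fold change was -12.48 ± 0.17 (adjusted p = 3.72e-12). Of 24 genes of oocyte patterning and germ plasm, 22 were lower and 2 were higher in sons, and the median log2 fold change was -3.13. The anterior determinant bcd had 0.33, 0.205, 1.64, 0.279 and 0.377 CPM in sons and 114, 114, 133, 125 and 148 CPM in daughters. The helicase gene vas, which is used in the germ line of both sexes, had 12.8, 7.18, 34, 12.1 and 7.91 CPM in sons and 323, 256, 299, 349 and 329 CPM in daughters. Son m33 was the highest son for vas and bcd, and for the germ line genes piwi, AGO3 and bam, yet it lay below every daughter in each. The exceptions were grk, the ligand that signals from the oocyte to the follicle cells, and tud, a germ granule scaffold. For grk, sons had 78.9, 59.9, 55.4, 61.6 and 57.1 CPM and daughters had 26.9, 29.1, 28.4, 26.3 and 29.5 CPM, a log2 fold change of 1.16 ± 0.10 (adjusted p = 7.39e-07) with no overlap. Tud averaged 501 ± 22.8 CPM in sons and 334 ± 28.4 CPM in daughters, with a log2 fold change of 0.59 ± 0.07 (adjusted p = 8.04e-06).

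Meiosis, egg activation and DNA replication gave the same direction. Of 20 genes of female meiosis and egg activation, 17 were lower in sons, none was higher, and ord, mei-P22 and mei-W68 were not called, at log2 fold changes of 2.48, -0.43 and -0.11. The egg thioredoxin gene dhd had 0.907, 1.44, 3.52, 1.21 and 0.565 CPM in sons and 2043, 2018, 2322, 2129 and 2566 CPM in daughters, so the groups were far apart, at -10.47 ± 0.40 (adjusted p = 1.70e-09). The maternal tubulin alphaTub67C averaged 0.71 ± 0.145 CPM in sons and 569 ± 38.8 CPM in daughters. Of 28 genes of DNA replication and the cell cycle, 27 were lower, with a median of -4.3. CycB, the mitotic cyclin that is also stored in eggs, averaged 12.7 ± 8.92 CPM in sons and 2858 ± 249 CPM in daughters (-7.81 ± 0.53; adjusted p = 9.58e-08). The exception was gem, with 195, 209, 209.7, 191 and 225 CPM in sons, against 99, 107, 95.7, 91.8 and 99.8 CPM in daughters. The symbol gem stands for gemini and not for the replication inhibitor geminin, so it entered this list by its symbol alone. Every son lay above every daughter for gem, at a log2 fold change of 1.06 ± 0.06 (adjusted p = 4.30e-08). Tral, a component of maternal RNA granules, was among the most abundant genes lower in sons, at 207 ± 13.3 CPM in sons and 2962 ± 149 CPM in daughters.

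The piRNA pathway silences transposons in the germ line and its somatic neighbours. Of its 27 listed genes, 23 were lower in sons, 2 were higher and 2 were not called, and the median log2 fold change was -3.16. Piwi had 8.25, 2.77, 26.8, 3.16 and 3.96 CPM in sons and 196, 199.5, 193, 198 and 201 CPM in daughters. AGO3, its cytoplasmic partner in the amplification loop, had 7.59, 6.87, 37.7, 10.6 and 9.42 CPM in sons and 156, 133, 148, 138 and 142 CPM in daughters. Son m33 was the highest son for both and no son reached the daughters. Aub averaged 13.2 ± 10.8 CPM in sons and 103 ± 9.38 CPM in daughters. The genes higher in sons were mino and papi, proteins of the mitochondrial surface, with log2 fold changes of 0.66 and 0.45. Fs(1)Yb and tapas were not called, at 0.24 and 0.04.

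The highest folds in sons belonged to the accessory gland and the ejaculatory duct and bulb, whose products enter the female with the sperm. All 35 seminal fluid genes and all 10 duct and bulb genes were higher in sons. For 22 of the seminal fluid genes and 5 of the duct and bulb genes no daughter had a count. With those genes set at the bound that 3 counts over the 5 daughters allow (0.0523 CPM), the median log2 fold changes were 9.55 and 9.88. Acp36DE (2L:18356047-18359028, minus strand, on BDGP6.54), which is needed for sperm storage, had 369, 823, 322, 679 and 948 CPM in sons and 0 CPM in every daughter, at least 12006-fold higher. The sons differed from each other by less than 3-fold in Acp36DE. Met75Cb averaged 1166 ± 373 CPM in sons and 0 in every daughter, at least 22280.5-fold higher. The sex peptide gene SP, whose product changes the mated female's behaviour, had 51.4, 57.9, 27.8, 52.4 and 54.8 CPM in sons and 0 CPM in daughters. Son m33 was the lowest for SP.

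Of the duct and bulb genes, Ebp, a component of the mating plug, had 498, 1266, 383, 939 and 1438 CPM in sons and no count in daughters, at least 17291-fold higher. Anp, the peptide andropin, averaged 152 ± 28.8 CPM in sons and was at 0 in daughters. Dup99B, a relative of the sex peptide, averaged 228 ± 46 CPM in sons and had 2 counts in the 5 daughters together. Enzymes that other tissues also make differed less. Gld, glucose dehydrogenase, averaged 167 ± 42.3 CPM in sons and 5.74 ± 1.4 CPM in daughters (4.87 ± 0.23; adjusted p = 6.09e-09). Est-6, an esterase of the duct, averaged 666 ± 208 CPM in sons and 42.9 ± 7.66 CPM in daughters (3.96 ± 0.22; adjusted p = 2.21e-08).

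Testis genes were high in sons, at levels that depended on the library. The sperm tubulin betaTub85D (3R:9408383-9410282, minus strand, on BDGP6.54) had 6.43, 124, 105, 46 and 4.05 CPM in sons m31 to m35, against 0.633, 0.167, 0.0832, 0 and 0.237 CPM in daughters f31 to f35. Sons m31 and m35 were the lowest and m32 and m33 the highest, all 5 above the daughters, and the log2 fold change was 7.91 ± 1.25 (adjusted p = 1.06e-04). The spermatid gene Mst87F had 5.86, 64, 59.4, 44.1 and 12.3 CPM in sons and 0.814, 0, 0.166, 0 and 0.0789 CPM in daughters. S-Lap1, a leucine aminopeptidase that is abundant in sperm, had 18.1, 414, 365, 166 and 27.2 CPM in sons and 0.995, 0, 0, 0.104 and 0 CPM in daughters. The order of the sons was similar in all of these, with m31 and m35 low, and in daughters f31 was highest for each. Loopin-1, another sperm aminopeptidase, averaged 129 ± 123 CPM in sons and 0.109 ± 0.243 CPM in daughters.

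Of 41 spermatid and sperm genes, 34 had enough reads to be tested, 32 were higher in sons and m-cup was lower, at a log2 fold change of -0.50. The other 7 could not be tested and averaged 1.85 CPM (d-cup) to 10.9 CPM (soti) in sons. Without sons m31 and m35, a comparison added after the data were seen, all 41 were tested and 39 were higher. Dj, a sperm tail protein gene, averaged 44.3 ± 31.6 CPM in sons and had 3 counts in the 5 daughters. Meiotic arrest genes switch on the testis program in spermatocytes, and 12 of 16 were tested. Sons were higher for 8 and lower for 2, bam and Nxt1. Can, a testis TAF, had 1.48, 3.39, 3.6, 5.58 and 1.13 CPM in sons and 2 counts in the daughters together. Aly, a component of the tMAC complex, had 1.9, 2.46, 3.03, 2.88 and 2.17 CPM in sons and 1.45, 1.5, 0.333, 0 and 0.0789 CPM in daughters (1.86 ± 0.70; adjusted p = 0.0272). The call was lost without son m33, son m34, daughter f33 or daughter f35, at adjusted p-values of 0.05195 to 0.07473. Without sons m31 and m35, 14 meiotic arrest genes were tested, 11 were higher and 2 were lower. Bam is not limited to the testis program and acts in the germ line of both sexes. It had 1.48, 1.54, 9.65, 1.77 and 1.6 CPM in sons and 41.2, 50.2, 56.5, 46.9 and 52.8 CPM in daughters, so its direction was that of the ovary genes.

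Y chromosome genes are used mainly in spermatocytes, several as giant dynein genes of the sperm tail. Of the 12 listed, 11 had counts in sons and Pp1-Y1 had none in any library. Their levels were low, at 0.836 ± 0.932 CPM for kl-3, 1.03 ± 1.47 CPM for kl-5 and 1.58 ± 1.7 CPM for CCY (mean ± SD, n = 5), with 0 in every daughter. FDY was the only gene of this list with enough reads to be tested. It had 4.45, 2.36, 6.46, 6.51 and 1.22 CPM in sons, against 0.362, 0, 0.0832, 0 and 0.0789 CPM in daughters, of which only f31 was above 0.1 CPM (5.19 ± 0.76; adjusted p = 5.56e-05). Without sons m31 and m35, 3 genes of the list were tested and all 3 were higher in sons. Outside the list, CR41506 (-0.45; adjusted p = 0.3145) and CR41507 (-1.01; adjusted p = 0.2226) on the Y were tested and not called. Daughters, which carry no Y, thus had reads assigned to both genes, and where those reads came from was not tested.

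Copies of proteasome and respiratory chain genes that are named as paralogs were set beside their general counterparts. Of 16 proteasome genes named as testis paralogs, 7 were tested, 6 were higher in sons and Prosalpha1R was lower (-0.38). Of the other 31 proteasome genes tested, 30 were lower in sons and none was higher, with a median log2 fold change of -0.77. Prosalpha6T averaged 5.04 ± 3.31 CPM in sons and 0 in daughters, while Prosalpha6 averaged 70 ± 3.55 CPM in sons and 161 ± 6.52 CPM in daughters (-1.2 ± 0.06; adjusted p = 5.51e-09). Rpn12R averaged 5.08 ± 3.62 CPM in sons and 0 in daughters, and Rpn12 averaged 70.5 ± 3.27 CPM in sons and 163 ± 8.79 CPM in daughters. All 8 tested copies of respiratory chain genes named with an L suffix were higher in sons, COX4L by 5.87 and SdhBL by 5.82 in log2 fold change. Their counterparts COX4 and SdhB were also higher, at 0.53 and 1.45. Reads of near-identical copies may have been divided between them during counting, and these paralog values are uncertain to that extent. Without sons m31 and m35, 23 of 23 respiratory copies and 15 of 16 proteasome copies were higher. The ribosomal pair RpS5a and RpS5b moved in opposite directions. RpS5b, the copy of the ovary germ line, had 30.6, 18.8, 95.6, 36.1 and 21.7 CPM in sons and 915, 755, 642, 899 and 861 CPM in daughters, while RpS5a averaged 1378 ± 52.1 CPM in sons and 896 ± 61.8 CPM in daughters (0.62 ± 0.06; adjusted p = 1.51e-06).

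The sex determination and dosage compensation genes had RNA in both sexes. Counts are per gene, so the sex-specific splice forms of Sxl, tra, dsx, fru and msl-2 could not be told apart. Msl-2 (2L:3462218-3466112, minus strand, on BDGP6.54), the MSL subunit that Sxl represses in females, had 49.5, 40.3, 47.9, 45.9 and 49.9 CPM in sons, against 11.1, 11.5, 10.4, 8.76 and 10.2 CPM in daughters. Both groups were tight and far apart, at 2.17 ± 0.10 (adjusted p = 5.22e-09). The other protein subunits were mostly lower in sons. Msl-1, the scaffold of the complex, had 48.4, 36.5, 37.7, 45.2 and 42.2 CPM in sons and 233, 250.1, 254, 267 and 278 CPM in daughters (-2.61 ± 0.09; adjusted p = 9.75e-10). Msl-3 differed by -1.62 ± 0.09, mof, the acetyltransferase, by -1.36 ± 0.08, and Clamp, the zinc finger protein that guides the complex to the X, by -1.34 ± 0.06. Mle, the helicase, was higher by 0.25 ± 0.08 (adjusted p = 0.0131) with overlapping groups, a call lost without daughter f31 (adjusted p = 0.0514) or daughter f32 (adjusted p = 0.0541). Eggs are also stocked with maternal RNA of several of these genes, and the part of the ovary in these values was not tested.

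Dsx had 59.5, 83.1, 70, 90.1 and 90.3 CPM in sons and 18.6, 21.3, 16.4, 19.3 and 16.9 CPM in daughters, a log2 fold change of 2.09 ± 0.13 (adjusted p = 5.58e-08). Fru had 54.9, 40.1, 41, 41.5 and 53.6 CPM in sons and 15, 18.6, 15.1, 19.6 and 11.8 CPM in daughters, at 1.53 ± 0.15 (adjusted p = 2.68e-06). Every son was above every daughter in both genes, which act at the end of the hierarchy. Upstream, Sxl had 127, 90.1, 111, 92.6 and 109.6 CPM in sons and 188, 205, 191, 208 and 211 CPM in daughters (-0.92 ± 0.09; adjusted p = 3.26e-06). Tra was not called (-0.08 ± 0.14; adjusted p = 0.614), and no direction is given for it. In all, 4 of 16 tested genes of this list were higher in sons and 11 were lower. The lower ones included the splicing cofactors snf (-1.11), fl(2)d (-0.91), vir (-0.34) and tra2 (-0.62), and the dsx cofactor genes ix (-1.62) and her (-0.34). The X-counting gene sisA, which acts in embryos, was not tested for lack of reads.

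Outside the gonads, sex-biased genes of head and fat body were followed. Cyp4d21 (sxe1), a cytochrome P450 of male heads, had 58, 57.7, 59.2, 71.7 and 81.9 CPM in sons and 1.27, 2.0, 0.499, 1.15 and 0.946 CPM in daughters (5.8 ± 0.26; adjusted p = 5.16e-09). Fit, a satiety peptide gene of the female fat body, had 1.73, 2.26, 4.91, 1.95 and 1.88 CPM in sons and 97.1, 111, 53.5, 93.9 and 82.9 CPM in daughters (-5.08 ± 0.31; adjusted p = 4.93e-08). Both pairs of groups were fully separate. Sxe2, a lipase gene, averaged 59 ± 24.4 CPM in sons and 2.07 ± 0.444 CPM in daughters. The odorant binding protein genes Obp99a and Obp99b went opposite ways. Obp99a averaged 6.13 ± 4.48 CPM in sons and 101 ± 36.7 CPM in daughters (-4.04 ± 0.52; adjusted p = 2.05e-05), and Obp99b averaged 82.9 ± 16.2 CPM in sons and 2.04 ± 0.911 CPM in daughters (5.34 ± 0.31; adjusted p = 2.74e-08). Takeout (to), a feeding and courtship gene of the male fat body, averaged 98.4 ± 21.3 CPM in sons and 28.7 ± 7.79 CPM in daughters (1.78 ± 0.20; adjusted p = 5.50e-06). Of the 10 tested genes of this list, 5 were higher and 5 lower, the lower ones being the 3 yolk proteins, fit and Obp99a. Of 9 genes listed for the spermatheca and female reproductive tract, 8 were tested, 6 were higher in sons and 2 were lower, Send1 and Hr39, and the median log2 fold change was 1.32. The spermathecal protease Send1, a marker of the female sperm store, was at 0 in every son and averaged 24.1 ± 5.75 CPM in daughters. Hr39, a nuclear receptor needed for the spermathecal glands, had a log2 fold change of -1.17.

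Cuticular hydrocarbons waterproof the fly and serve as sex pheromones. Cyp4g1, the oenocyte enzyme of their last step, was the most abundant gene among those higher in sons, with 12559, 14048, 8403, 10262 and 11645 CPM in sons and 1804, 791, 585, 1188 and 1094 CPM in daughters (3.38 ± 0.29; adjusted p = 6.53e-07). FASN2, a fatty acid synthase of oenocytes, averaged 603 ± 144 CPM in sons and 82 ± 17.9 CPM in daughters (2.88 ± 0.21; adjusted p = 1.98e-07). Of 16 genes tested, 11 were higher in sons and 2 were lower. The lower ones make the dienes of females. Fad2, the female desaturase, had 0, 1.85, 8.18, 0.558 and 24.6 CPM in sons and 63.5, 51.2, 60.1, 149 and 109.8 CPM in daughters (-3.63 ± 0.91; adjusted p = 0.00298). EloF, the female elongase, had 3.88, 6.05, 3.11, 6.04 and 4.05 CPM in sons and 49, 23.2, 15.6, 26.6 and 25.2 CPM in daughters (-2.6 ± 0.31; adjusted p = 1.23e-05). No son reached the lowest daughter in either gene, and son m35 was the highest son for Fad2, whose log2 fold change was -5.01 without that son (adjusted p = 0.0002132).

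Insulin and adipokinetic hormone control growth, feeding and fuel use. Of 19 genes of this list 16 were tested, 10 were higher in sons and 2 were lower, Ilp8 and Sdr. Akh, the hormone that mobilises stores, had 8.83, 4.0, 16.8, 19.5 and 16.7 CPM in sons and 0.181, 0.25, 1.08, 2.61 and 2.05 CPM in daughters (3.42 ± 0.67; adjusted p = 5.56e-04). The brain insulins Ilp2 and Ilp3 were higher in sons. Ilp2 averaged 12.1 ± 2.24 CPM in sons and 4.04 ± 1.04 CPM in daughters (1.58 ± 0.22; adjusted p = 3.47e-05), and Ilp3 averaged 4.08 ± 1.46 CPM in sons and 0.768 ± 0.279 CPM in daughters (2.39 ± 0.34; adjusted p = 4.93e-05). Ilp6, the insulin of the fat body, differed by 0.85 ± 0.17. Ilp8, a relaxin-like hormone that follicle cells make at ovulation, averaged 1.61 ± 0.442 CPM in sons and 37.5 ± 9.05 CPM in daughters (-4.54 ± 0.23; adjusted p = 1.04e-08). Ilp7 was not called (-1.36 ± 0.60; adjusted p = 0.0505), and was called without son m31, m32 or m35 or daughter f33, at adjusted p-values of 0.02983 to 0.04873. Ilp1, Ilp4 and Ilp5 had too few reads to be tested, at 0.276 ± 0.267, 0.111 ± 0.13 and 1.02 ± 0.445 CPM in sons, and 0, 0 and 0.57 ± 0.148 CPM in daughters.

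Downstream of the hormones, the foxo target Thor, which restrains translation, had 1109, 379.9, 607, 407 and 368 CPM in sons and 136, 143, 117, 135 and 106 CPM in daughters, apart in every library (2.17 ± 0.30; adjusted p = 3.63e-05). ImpL2, a secreted insulin binding protein, averaged 231 ± 18.2 CPM in sons and 83.6 ± 16.5 CPM in daughters (1.47 ± 0.13; adjusted p = 9.76e-07). InR, the receptor, differed by 0.95 ± 0.21 (adjusted p = 0.00130), its adaptor chico by 0.64 ± 0.15, and the kinase gene sgg by 0.58 ± 0.08. Foxo itself was 0.40 ± 0.16 (adjusted p = 0.0339), son m31 was the highest of the sons, and the call was lost without any single daughter (adjusted p = 0.0676 to 0.0810). AkhR (0.53 ± 0.26; adjusted p = 0.0733), Akt (-0.10 ± 0.14; adjusted p = 0.518) and the relaxin receptor gene Lgr3 (-0.08 ± 0.28; adjusted p = 0.797) were not called. Without son m31, AkhR was called at 0.70 (adjusted p = 0.00182) and Akt at -0.25 (adjusted p = 0.0418).

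**Figure D3:**
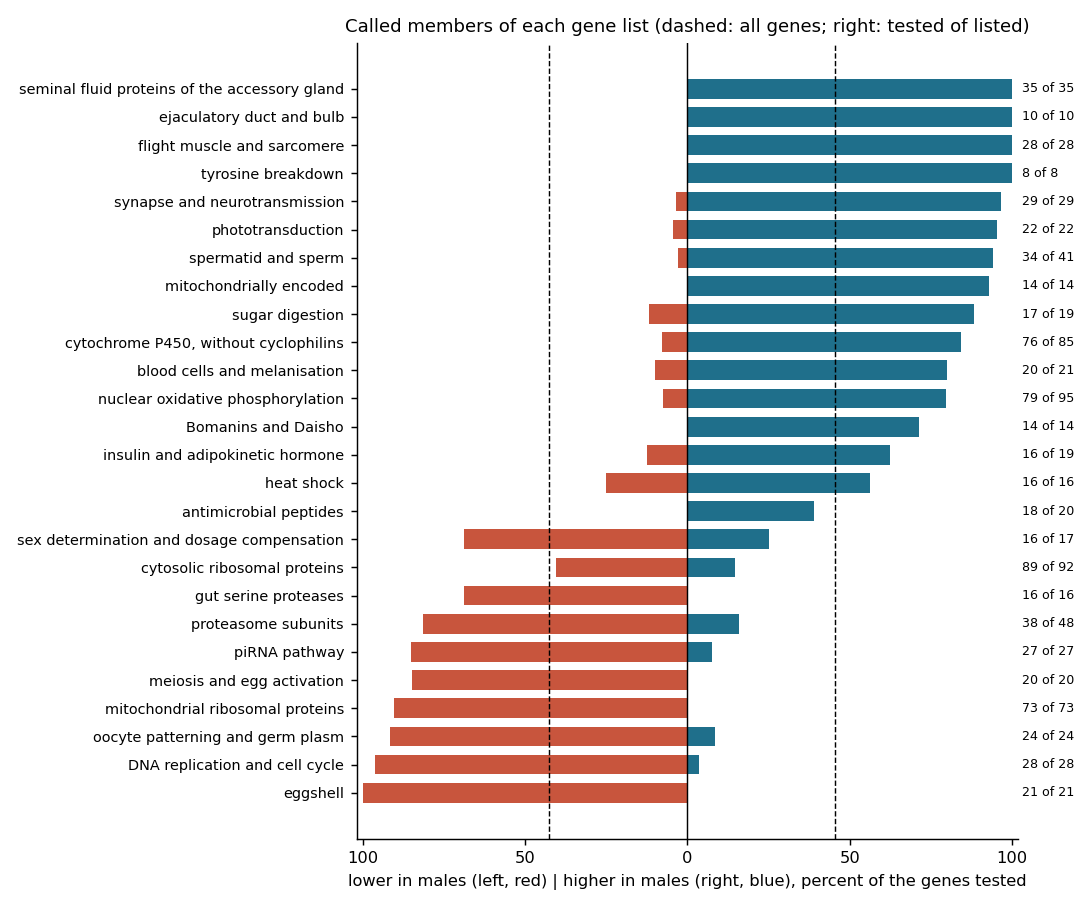
Percent of the tested members of each gene list that were called higher (blue, right) or lower (red, left) in sons, with the shares over all genes as dashed lines and the number tested of those listed at the right edge. All 28 muscle genes and all 21 eggshell genes were called, in opposite directions.

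Genes of muscle, neurons and eyes were higher in sons almost without exception. All 28 sarcomere genes were higher, with a median log2 fold change of 2.19. Mhc, the myosin heavy chain, had 1620.3, 1782, 1158, 1698 and 2021 CPM in sons and 364, 419, 316, 403 and 305 CPM in daughters (2.2 ± 0.15; adjusted p = 1.05e-07). Act88F, the actin of indirect flight muscle, had 85.4, 35.8, 72.8, 35.7 and 37.9 CPM in sons and 5.97, 20.4, 8.81, 19.6 and 6.94 CPM in daughters (2.12 ± 0.42; adjusted p = 5.55e-04). No daughter reached the lowest son in either gene. Fln, a flight muscle filament protein, averaged 19.5 ± 6.37 CPM in sons and 1.87 ± 1.09 CPM in daughters (3.4 ± 0.38; adjusted p = 6.80e-06).

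Of 29 synapse genes, 28 were higher in sons, with a median of 2.37, and Csp was lower (-0.65). VAChT, which loads acetylcholine into vesicles, averaged 32.2 ± 7.01 CPM in sons and 4.88 ± 0.611 CPM in daughters (2.72 ± 0.17; adjusted p = 5.57e-08). The sodium channel gene para averaged 137 ± 26.1 CPM in sons and 22.7 ± 5.73 CPM in daughters (2.59 ± 0.18; adjusted p = 1.47e-07). Of 22 phototransduction genes, 21 were higher, with a median of 2.17, and rdgB was lower (-0.49). The main rhodopsin gene ninaE had 4159, 2917, 4278, 1481 and 5702 CPM in sons and 534, 1151, 900.1, 710.2 and 1025 CPM in daughters (2.1 ± 0.33; adjusted p = 1.07e-04), and Rh6 differed by 3.2 ± 0.55. Arc1, a capsid-forming gene of neurons and fat body, was one of the most abundant genes higher in sons, at 4197 ± 548 CPM in sons and 679.7 ± 135 CPM in daughters (2.63 ± 0.14; adjusted p = 1.87e-08). CPM is a share of the library, and in daughters part of it belonged to ovary RNA, such as the 2635 to 10059.8 CPM of the follicle cell markers. The whole share of ovary RNA was not measured. Whether these somatic differences hold per cell was not tested.

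Metabolic genes divided by pathway. All 8 genes of tyrosine breakdown and use were higher in sons, with a median of 3.14. Hpd, the dioxygenase of the second step, had 570.5, 242, 399, 261 and 293 CPM in sons and 18.5, 22.3, 27.4, 35.3 and 28.3 CPM in daughters (3.75 ± 0.28; adjusted p = 1.97e-07). Tat, the aminotransferase of the initial step, averaged 129 ± 27.7 CPM in sons and 14.4 ± 2.42 CPM in daughters (3.17 ± 0.18; adjusted p = 2.88e-08). Of 17 tested genes of sugar digestion and transport, 15 were higher and sut1 and Mal-A5 were lower, with a median of 2.38. The glucosidase tobi averaged 620.1 ± 210.1 CPM in sons and 61.8 ± 10.5 CPM in daughters (3.33 ± 0.23; adjusted p = 1.22e-07), and the maltase Mal-A1 averaged 1600.4 ± 351 CPM in sons and 308 ± 84.1 CPM in daughters. The sugar transporter gene sut1 went the other way, at -2.26 ± 0.13.

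The Jonah genes, serine proteases of the gut, were lower in sons for 11 of 16, and none was higher. Jon25Biii had 13, 20.7, 28.3, 43.1 and 5.09 CPM in sons and 342, 263, 260.0, 303 and 157 CPM in daughters (-3.59 ± 0.47; adjusted p = 2.32e-05). Jon99Fi had 7.01, 13.4, 13, 64.3 and 3.2 CPM in sons and 291, 269, 247, 259.7 and 202 CPM in daughters (-3.65 ± 0.66; adjusted p = 2.94e-04), with son m34 above the other sons and a log2 fold change of -4.79 without that son (adjusted p = 8.775e-07). The most abundant member, Jon65Aiv, was not called (-0.40 ± 0.21; adjusted p = 0.0912), though it was without son m31 (adjusted p = 0.0345) or daughter f35 (adjusted p = 0.0289). Several Jonah genes are close copies and their reads may have been shared out in counting. In glycolysis 10 of 18 genes were higher and 5 lower, so the list had no single direction. Ldh, lactate dehydrogenase, differed by 1.94 ± 0.18, and Gapdh2 by -1.23 ± 0.07, while its counterpart Gapdh1 was at -0.24. Pglym87, a testis copy of phosphoglycerate mutase, averaged 12 ± 9.29 CPM in sons and was at 0 in daughters, and the general copy Pglym78 differed by -0.45 ± 0.05. Lipid genes were higher for 13 of 21 and lower for Lsd-2 and Hsl, which coat and hydrolyse lipid droplets. Lsd-2 averaged 316 ± 62.8 CPM in sons and 834 ± 50.2 CPM in daughters (-1.4 ± 0.13; adjusted p = 1.08e-06).

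Of 76 tested cytochrome P450 genes, 64 were higher in sons and 6 were lower, with a median log2 fold change of 1.84. Cyp6a19 was the extreme on the female side, with 2.06, 0.616, 1.06, 0.651 and 0.377 CPM in sons and 351, 383, 426, 403 and 452 CPM in daughters (-8.66 ± 0.30; adjusted p = 9.28e-10). Daughters were within a narrow range and all sons were far below. Cyp312a1 was an extreme on the male side, at 96.2 ± 31.6 CPM in sons and 2.53 ± 1.16 CPM in daughters (5.24 ± 0.34; adjusted p = 6.53e-08).

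Of 14 genes encoded by the mitochondrial genome, 13 were higher in sons, with a median log2 fold change of 1.05. Mt:CoI, a subunit of cytochrome oxidase, had 10169.7, 8689, 9728, 8756 and 8633 CPM in sons and 4281, 3914, 3201, 4111 and 3225 CPM in daughters (1.3 ± 0.09; adjusted p = 1.77e-07). Nuclear genes of oxidative phosphorylation, testis copies aside, were higher for 55 of 71 and lower for 6, with a median of 0.46. The machinery that translates mitochondrial RNA went the other way. Of 73 mitochondrial ribosomal protein genes, 66 were lower in sons and none was higher, with a median of -0.93. MRpL12 averaged 28.1 ± 5.33 CPM in sons and 106 ± 6.14 CPM in daughters (-1.93 ± 0.12; adjusted p = 6.47e-08). Cytosolic ribosomal protein genes had a median near 0 (-0.08), with 13 of 89 higher and 36 lower. That split depended on the scaling, with 26 higher and 23 lower by DESeq2, so no direction is given for them. Of 8 housekeeping genes, 6 were lower in sons, with Act5C at -0.47 ± 0.12 and eEF1alpha1 at -0.43 ± 0.05, and SdhA and RpL32 were higher, RpL32 by 0.16 ± 0.05 (adjusted p = 0.0120), a call lost without daughter f32, f33 or f35 (adjusted p = 0.0504 to 0.0665).

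Immune lists differed in how many of their genes were called, and libraries of 1 sex were spread widely for several genes. Of 18 tested antimicrobial peptide genes, 7 were higher, none was lower and 11 were not called, beside 45.4% of all genes higher. CecA1, a cecropin, had 90.2, 112, 50.2, 137 and 113 CPM in sons and 7.96, 9.42, 14.5, 10.1 and 4.73 CPM in daughters (3.42 ± 0.32; adjusted p = 1.55e-06). AttA, an attacin, averaged 332 ± 92.1 CPM in sons and 76 ± 42.1 CPM in daughters (2.13 ± 0.39; adjusted p = 3.23e-04), and was not called with all progeny in 1 fit (adjusted p = 0.1375). The antifungal peptide gene Drs had 233, 2486, 637, 185 and 71.9 CPM in sons and 199.8, 314, 1089, 175 and 185 CPM in daughters and was not called (0.88 ± 0.90; adjusted p = 0.370). Son m32 and daughter f33 were far above their groups for Drs, and without m32 the fitted difference changed sign, at -0.48 (adjusted p = 0.5331). DptA, a diptericin, had 174, 191, 337, 771 and 281 CPM in sons and 112, 449.98, 363, 151 and 89 CPM in daughters and was not called either (adjusted p = 0.311).

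Bomanins are short secreted peptides under Toll control. Of 14 Bomanin and Daisho genes, 10 were higher in sons and 4 were not called, with a median of 1.77. BomT3 had 239, 517, 265, 279 and 235 CPM in sons and 38.9, 77.1, 137, 57.3 and 45.3 CPM in daughters (2.11 ± 0.36; adjusted p = 1.99e-04). BomBc1 had 83.2, 1316, 246, 179.6 and 137 CPM in sons and 20.4, 48.6, 362, 24.2 and 15.7 CPM in daughters, and was not called (2.06 ± 1.05; adjusted p = 0.0858). Son m32 was highest in both, and without daughter f33, the highest daughter, BomBc1 was called at 3.82 (adjusted p = 0.00228). In the recognition and NF-kB list 19 of 30 genes were higher and 10 lower. The receptor gene Tl, which the ovary also stocks for embryonic patterning, averaged 43 ± 4.49 CPM in sons and 314 ± 31.6 CPM in daughters (-2.87 ± 0.10; adjusted p = 8.55e-10). The NF-kB factors Dif and Rel were higher in sons, by 2.0 ± 0.12 (adjusted p = 3.97e-08) and 1.28 ± 0.11 (adjusted p = 8.62e-07). PGRP-LC, the receptor of the Imd pathway, averaged 99.4 ± 9.47 CPM in sons and 30 ± 5.0 CPM in daughters (1.73 ± 0.12; adjusted p = 1.03e-07). Of 20 tested blood cell and melanisation genes, 16 were higher and 2 lower. Hml, a clotting protein gene of hemocytes, had 37.6, 38.8, 59, 55.6 and 78.8 CPM in sons and 9.41, 9.34, 10.6, 17.4 and 15.7 CPM in daughters (2.11 ± 0.26; adjusted p = 1.19e-05).

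Chaperone genes divided between the sexes. Of 16 heat shock genes, 9 were higher in sons and 4 lower. Hsp26, a small chaperone that is also maternal, had 63.7, 58.1, 64.6, 67.3 and 40.9 CPM in sons and 949, 823, 995, 864 and 1069 CPM in daughters (-4.0 ± 0.15; adjusted p = 1.32e-09). Hsp27 averaged 54 ± 16.4 CPM in sons and 675 ± 35.3 CPM in daughters (-3.64 ± 0.19; adjusted p = 1.44e-08). Hsp22, the small chaperone of mitochondria that is known to rise with age, had 525, 384, 496, 822 and 757 CPM in sons and 56.1, 76.9, 90.8, 122 and 75 CPM in daughters (2.83 ± 0.26; adjusted p = 1.12e-06). Neither pair of groups overlapped for Hsp26 or Hsp22, although they pointed in opposite directions. Hsp83, the fly Hsp90, averaged 1325 ± 187 CPM in sons and 3957 ± 177 CPM in daughters (-1.58 ± 0.09; adjusted p = 3.97e-08), and the cochaperone gene stv averaged 271 ± 39.6 CPM in sons and 47.1 ± 9.26 CPM in daughters.

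Chromosome arms differed in their share of called genes. Of 1780 X-linked genes tested, 38.8% were higher and 49.1% were lower in sons, against 46.6% and 41.5% of 9245 autosomal genes. The median log2 fold change was -0.21 on the X and 0.14 on the autosomes. At 16-fold or more, 4.44% of X-linked genes were higher and 3.71% were lower, against 6.94% and 1.91% of autosomal genes. The arm 2L had the highest share of genes at least 16-fold higher, 9.18%, and X and 2L the highest shares at least 16-fold lower, 3.71% and 3.27%. These shares describe the arms and were not tested, since neighbouring genes are not independent. The 3 yolk protein genes and several eggshell genes are X-linked, and Acp36DE is on 2L.

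**Figure D4:**
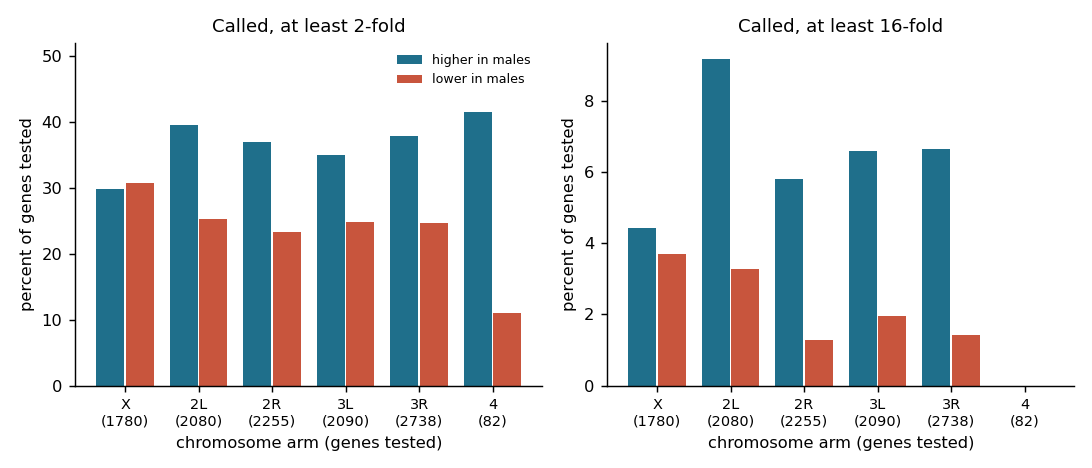
Percent of genes tested on each chromosome arm that were called at least 2-fold (left) or at least 16-fold (right) higher or lower in sons. On the X 30.8% were at least 2-fold lower and 29.8% at least 2-fold higher, and on every autosomal arm more genes were higher than lower at that size.

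The same contrast at day 50 in progeny of mothers on the other diets uses other libraries. In sons against daughters of HFD mothers 6196 of 12402 genes tested (50.0%) were higher and 4615 (37.2%) lower, and in those of HSD mothers 5714 of 12358 (46.2%) and 4163 (33.7%). Of the genes tested in both CD and HFD progeny, 4490 were higher in sons in both, which is 90.4% of those of CD progeny and 93.6% of those of HFD progeny. For genes lower in sons, 4305 were shared, 91.4% and 93.6%. With HSD progeny 4251 higher genes (85.1% and 95.6%) and 4069 lower genes (86.5% and 98.0%) were shared. Of the genes higher in sons than daughters of CD mothers, 19 were called lower in sons than daughters of HFD mothers and 0 in those of HSD mothers. Of the genes lower in sons of CD mothers, 44 and 2 were called higher in sons of HFD and HSD mothers. Testis RNA of CD sons was low beside these groups, on a scale common to the day 50 libraries. BetaTub85D had 3.94, 46.3 and 122 CPM (lowest, median and highest) in sons of CD mothers, 382, 481 and 491 CPM in sons of HFD mothers and 35.5, 172 and 709 CPM in sons of HSD mothers. The CD sons thus lay below the HFD sons without overlap, and overlapped the lower part of the range of the HSD sons. InR, called here at 0.95, was at -0.09 in HFD progeny and 0.29 in HSD progeny, neither of which was called. The difference between these diets was not tested.

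For many genes the sex difference at day 50 was not that at day 10. The days were sampled in separate libraries, so age and any difference in handling cannot be told apart. At day 10, 5779 of 12462 genes tested (46.4%) were higher in sons of CD mothers and 4534 (36.4%) lower. Of the genes tested at both days, 3731 were higher in sons at day 50 and at day 10, 75.3% of those at day 50 and 85.2% of those at day 10. For lower genes 3823 were shared, 81.6% and 85.4%. The sex difference itself, day 50 minus day 10, was called for 5410 of 12690 genes, 3287 more positive at day 50 (25.9%) and 2123 more negative (16.7%). This split leaned on the scaling: DESeq2 called 2985 and 3332, so 60.8% of the calls were positive in edgeR and 47.3% in DESeq2. For 239 genes sons were higher at day 50 and lower at day 10, and for 298 the reverse held, with the difference called. CPM values in the rest of this account are scaled over the 20 CD libraries of both days.

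Muscle genes moved together. All 28 had a more positive sex difference at day 50 than at day 10, with a median of 3.02, as 28 did by DESeq2 and 27 in a fit of all progeny. At day 10, 3 were higher and 16 were lower in sons. Act88F averaged 55.3 ± 25.2 CPM in sons and 11.5 ± 6.4 CPM in daughters at day 50, against 58.1 ± 19 CPM in sons and 2112 ± 1595 CPM in daughters at day 10 (SD, n = 5 each). Sons were alike at both days and the day 10 daughters were far above the rest, ranging over 1046 to 4914 CPM, and the interaction was 7.45 ± 0.68 (adjusted p = 3.45e-07). Mhc averaged 1700.3 ± 298 CPM in sons and 339.8 ± 42 CPM in daughters at day 50, and 2962 ± 182 CPM in sons and 6235 ± 3395 CPM in daughters at day 10 (3.4 ± 0.35; adjusted p = 9.41e-07). Of 43 cuticle protein genes, 28 were more positive at day 50 and none was more negative. Acp65Aa, a cuticle protein gene, averaged 0.116 ± 0.159 CPM in sons and 0.133 ± 0.0496 CPM in daughters at day 50, against 0.153 ± 0.167 CPM in sons and 99.2 ± 30.7 CPM in daughters at day 10. The day 10 daughters alone were above 1 CPM on average for this gene.

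**Figure D5:**
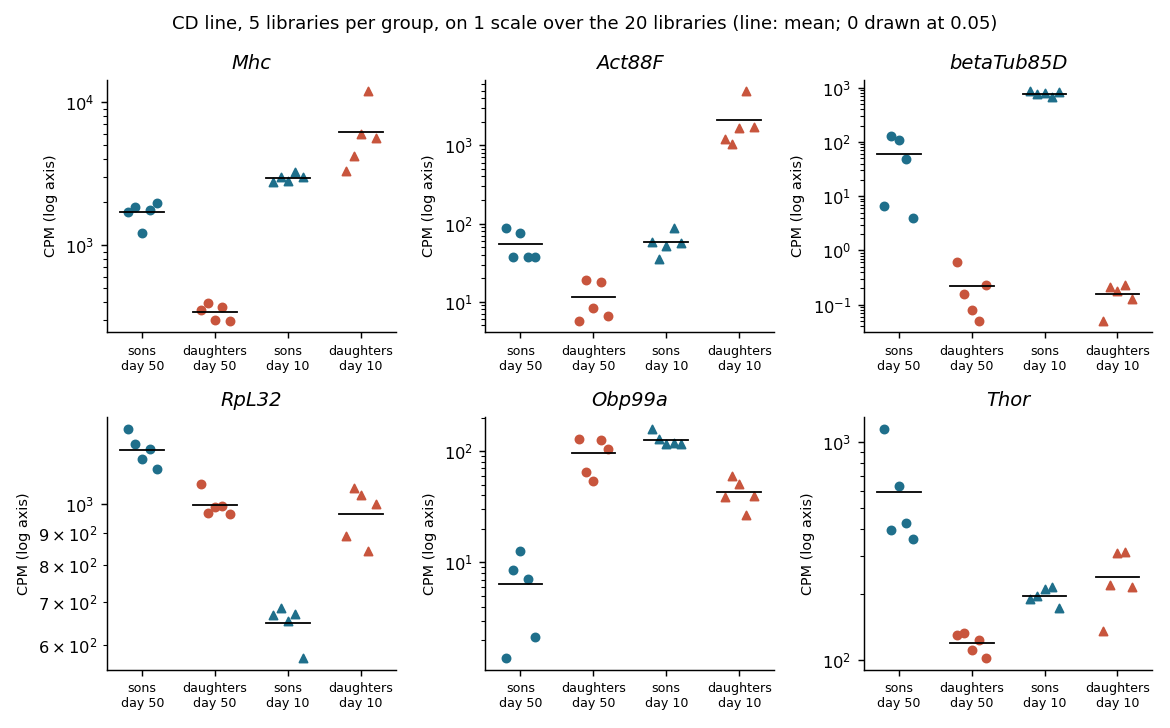
CPM by library, on a log axis, of selected genes at day 50 (left) and day 10 (right), with sons left of daughters at each day. Act88F is highest in the day 10 daughters, and betaTub85D is lower in all day 50 sons than in the day 10 sons.

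The testis gene betaTub85D averaged 59.3 ± 57.6 CPM in sons at day 50 and 784 ± 75.2 CPM in sons at day 10, without overlap. The interaction was not called by edgeR (-4.13 ± 2.02; adjusted p = 0.109), and was called by DESeq2 (adjusted p = 0.00203) and by edgeR without sons m31 and m35 at -3.39 (adjusted p = 0.0055). Of 41 spermatid genes, 8 had a more negative sex difference at day 50 and 1 a more positive one by edgeR, while DESeq2 called 30 more negative and edgeR without sons m31 and m35 called 19. Aly averaged 2.56 ± 0.516 CPM in sons and 0.634 ± 0.70 CPM in daughters at day 50, against 6.18 ± 1.08 CPM in sons and 0.0153 ± 0.0342 CPM in daughters at day 10 (-5.86 ± 1.13; adjusted p = 4.07e-04). Among day 10 daughters only f19 was above 0, at 0.0764 CPM, and at day 50 f31 and f32 were highest, at 1.38 and 1.39 CPM. The size of the aly interaction thus rests in part on very few counts in daughters.

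Of 21 eggshell genes 1 had a called interaction. For 28 genes of DNA replication and the cell cycle, the interaction was positive for 5, negative for 8 and not called for 15. The 5 include gem, which was listed by its symbol alone. Over all genes 25.9% were positive and 16.7% negative. One of the negative ones was CycB, at -2.58 ± 0.47 (adjusted p = 2.65e-04). CycB averaged 13.2 ± 9.34 CPM in sons and 2693 ± 269 CPM in daughters at day 50, and 51.4 ± 1.93 CPM in sons and 1753 ± 397 CPM in daughters at day 10. Cytosolic ribosomal protein genes moved together, with 83 of 92 more positive at day 50, 82 by DESeq2 and 45 in a fit of all progeny. At day 10, 85 were lower in sons. RpL32 averaged 1218 ± 67.4 CPM in sons and 998 ± 45.2 CPM in daughters at day 50, and 649.8 ± 45.3 CPM in sons and 964 ± 94.4 CPM in daughters at day 10 (0.86 ± 0.10; adjusted p = 3.18e-06).

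In fat body and head, fit averaged 2.63 ± 1.4 CPM in sons and 82.4 ± 19.7 CPM in daughters at day 50, and 7.89 ± 2.21 CPM in sons and 4.89 ± 5.02 CPM in daughters at day 10, an interaction of -5.71 ± 0.65 (adjusted p = 2.64e-06). Obp99a averaged 6.36 ± 4.69 CPM in sons and 95.4 ± 34.2 CPM in daughters at day 50, and 127 ± 18.9 CPM in sons and 43 ± 12.5 CPM in daughters at day 10 (-5.47 ± 0.59; adjusted p = 1.57e-06). Lsp2, a storage protein gene of the larval and adult fat body, averaged 12.8 ± 13.1 CPM in sons and 18.5 ± 8.91 CPM in daughters at day 50, and 298 ± 125 CPM in sons and 2.36 ± 2.1 CPM in daughters at day 10 (-7.49 ± 0.99; adjusted p = 1.12e-05). The young sons carried the high level of Lsp2. Of 17 cuticular hydrocarbon and pheromone genes, 7 had a more positive sex difference at day 50, 1 a more negative one and 9 were not called, beside 25.9% and 16.7% of all genes. Among the positive ones, the interaction was 2.0 ± 0.37 for Cyp4g1 (adjusted p = 2.95e-04) and 1.92 ± 0.32 for FASN2. Both genes were higher in sons at each day. The value was 4.33 ± 0.54 for eloF and 11.98 ± 2.16 for Fad2 (adjusted p = 4.37e-04). These 2 genes were lower in sons at each day, and less so at day 50. EloF had 0.132 to 1.6 CPM in sons and 62.9 to 141 CPM in daughters at day 10. At day 50 it had 3.23 to 6.3 and 14.8 to 46.9 CPM. Fad2 averaged 0 and 500 CPM at day 10, and 7.02 and 81.5 CPM at day 50, in the same order. No son had a Fad2 count at day 10, so the size of its interaction depends on how the fit treats zero counts. In the insulin list 7 interactions were positive and 3 negative. Thor averaged 594 ± 332 CPM in sons and 119.7 ± 13.1 CPM in daughters at day 50, and 197 ± 17.3 CPM in sons and 239.7 ± 74.6 CPM in daughters at day 10 (2.59 ± 0.38; adjusted p = 3.43e-05). Ilp3 differed by 2.19 ± 0.47 and Ilp2 by -1.0 ± 0.26, in opposite directions.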

How the data were processed

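The authors deposited a table of whole-number counts per gene, 1 column a library, not normalized. Per the submitters' processing notes, kallisto, R 4.2.0, DESeq2 1.36.0 and the BDGP6 genome were used and the sources used here give no annotation version, strand setting or read length. RNA came from whole flies by Qiazol and spin columns with DNase digestion, per the labels' protocols. Kallisto shares reads among similar transcripts, so close copies are uncertain. Of 14312 gene identifiers, 14302 matched a symbol in the Ensembl BDGP6.54 annotation, the source of the coordinates.

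Libraries were grouped by the labelled maternal diet, day and sex. Genes were kept with edgeR's filterByExpr (minimum count 10, minimum total 15), scaled by TMM and tested with the quasi-likelihood F test (edgeR 4.0.16, R 4.3.3) on the 10 libraries, with no covariate and Benjamini-Hochberg adjustment (threshold 0.05). Fold changes are sons over daughters with SE, and CPM are TMM scaled. The interaction of sex with day was fitted on the 20 CD libraries. DESeq2 1.42.0, other scaling, no filter, all progeny in 1 fit, a replicate block, a test against 2-fold and leaving out libraries were tried. Fits were tested on simulated data. The members and gene lists were chosen with earlier results of these data known. Named genes follow a rule on size, abundance and list membership. The prefix Cyp also takes in 3 cyclophilins, which were left out of the P450 counts after the values were seen. Bounds and floors cover counting error only.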

Additional observations from a re-analysis of the deposited data

Results flagged for a closer look

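Single libraries lay far from their group by Dixon's test (critical value 0.71 for 5 libraries) in 41 groups, of which 39 were among 358 sex groups of 179 genes and 2 were marker sums. Chance flags about 1 in 20 groups.

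Son m33 was above the other sons for ovary and germ line genes, with dec at 3.68 CPM, bcd at 1.64 CPM, vas at 34 CPM, piwi at 26.8 CPM, AGO3 at 37.7 CPM, RpS5b at 95.6 CPM and bam at 9.65 CPM. The same son had fit at 4.91 CPM and a follicle cell marker sum of 5.4 CPM, and it was the lowest son for SP at 27.8 CPM. In each of these ovary genes it remained below every daughter.

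Daughter f31 was the highest daughter for RpL22-like at 5.07 CPM and for sperm and Y genes, with Mst87F at 0.814 CPM, S-Lap1 at 0.995 CPM, loopin-1 at 0.543 CPM and FDY at 0.362 CPM. Daughter f34 had Dup99B at 0.209 CPM, a duct and bulb marker sum of 0.209 CPM, fln at 3.75 CPM and SdhB at 141 CPM. Daughter f35 stood apart for mof at 50.4 CPM, Clamp at 185 CPM and fl(2)d at 139.9 CPM, and daughter f32 for tra at 15.3 CPM.

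Immune genes were flagged in different libraries. Son m32 had Drs at 2486 CPM, BomT3 at 517 CPM and BomBc1 at 1316 CPM. Daughter f33 had Drs at 1089 CPM and BomBc1 at 362 CPM, daughter f32 had BomS6 at 49.5 CPM, and son m34 had DptA at 771 CPM. Son m31 stood apart for Tep4 at 1011 CPM, grk at 78.9 CPM, foxo at 227 CPM and stv at 340.2 CPM.

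The remaining flags were to at 135 CPM and WDY at 1.74 CPM in son m32, Jon99Fi at 64.3 CPM and Acp65Aa at 0.372 CPM in son m34, Ilp5 at 1.79 CPM and Hsp23 at 43.5 CPM in son m35, and CG8736 at 0.166 CPM in daughter f33.

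The sex difference at day 50 minus that at day 10 passed the test (edgeR, adjusted p under 0.05) for the genes named here. They were chosen after results were known, some for a large interaction, such as CG8736, zye, Acp65Aa and Lsp2. Over all 12690 genes tested, 25.9% were more positive and 16.7% more negative at day 50. On the log2 scale it was positive for the muscle genes Act88F (7.45), fln (7.34), Act79B (4.32) and Mhc (3.4). It was also positive for the cuticle gene Acp65Aa (9.27), for zye (8.81), which codes for a zona pellucida domain protein, and for CG8736 (10.07). The pheromone genes eloF (4.33), FASN2 (1.92) and Cyp4g1 (2.0) had positive values. So did Thor (2.59), Ilp3 (2.19), InR (1.79) and ImpL2 (1.48) of the insulin list, and the immune genes Rel (1.31) and Dif (1.23). Further positive values were found for Jon65Aiv (2.32), Arc1 (1.64), VAChT (1.52), RpS5a (0.95), RpL32 (0.86), msl-2 (0.56) and eEF1alpha1 (0.55). It was negative for Lsp2 (-7.49), aly (-5.86), fit (-5.71), Obp99a (-5.47), Obp99b (-3.74), CycB (-2.58), Ilp2 (-1.0) and mRpS10 (-0.82).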

How the results depend on the processing

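The 5016 genes higher and 4714 lower in sons became 5223 and 4530 with DESeq2, 5195 and 4508 with median-of-ratios scaling, 6602 and 4880 with no filter on low counts (13997 genes tested), and 4641 and 4477 with all progeny in 1 fit. A test against a 2-fold change left 3519 and 2421. Leaving out each library in turn gave 4966 to 5334 higher and 4670 to 4802 lower. Leaving out sons m34 and m35, which was planned, gave 5001 and 4643. In the deposited column order m44, a day 50 son of HSD mothers, stands between m34 and m35. Leaving out sons m31 and m35, chosen after seeing the data, gave 5853 and 4857. For the interaction of sex and day, DESeq2 called 2985 more positive and 3332 more negative at day 50, and all progeny in 1 fit called 1594 and 1260, against 3287 and 2123. In the fit of all progeny the interactions of msl-2, Ilp2, VAChT, Jon65Aiv, eEF1alpha1, Arc1 and Acp65Aa were not called. The correlation of same-numbered libraries of sons and daughters was -0.23 to 0.05 over 5 pairs, and 0 of them correlated best with its own number. The labels do not say whether same-numbered libraries share a culture, and 5 pairs are too few to decide it. With the library number as a replicate block 4952 genes were higher and 4649 lower, and 2971 interactions were positive and 2064 negative.

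Of genes not called in the reported comparison, tra changed sign with DESeq2 (0.0079), median-of-ratios scaling (0.0062) and without sons m34 and m35 (0.0095), Lgr3 with DESeq2 (0.0034) and median-of-ratios scaling (0.00053), and DptA (-0.0075) and Akt (0.029) without sons m34 and m35. The cause was not tested. Without 1 library at a time tra ranged from -0.16 to 0.0082, Lgr3 from -0.25 to 0.039 and Drs from -0.48 to 1.69. Leaving out 1 library moved the called fold changes of some genes by over 1.5 times, with no change of direction. Without son m33 the log2 fold change was -11.96 for dec, -8.67 for bcd, -11.07 for dhd, -5.42 for piwi, -3.58 for aub, -4.06 for AGO3, -4.93 for RpS5b and -4.95 for bam. Without daughter f31 it was 11.13 for RpL22-like, 8.63 for betaTub85D, 8.91 for Mst87F, 10.38 for dj, 12.53 for S-Lap1, 13.49 for loopin-1 and 6.27 for FDY. It was -10.66 for pgc without son m31, 4.82 for zye without daughter f32 and 14.34 for Dup99B without daughter f34. At this depth genes under about 10 counts a library, Y genes among them, could not be tested.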

Other observations

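Odorant binding proteins and glutathione S-transferases, which bind or detoxify small molecules, were also followed. Of 31 tested odorant binding protein genes, 25 were higher and 5 lower in sons. Obp56g averaged 413 CPM in sons and 2.93 CPM in daughters (log2 fold change 7.14), and Obp19c averaged 2.16 CPM in sons and 74.5 CPM in daughters (-5.11). The antennal genes Obp83a (2.69) and Obp83b (2.9) were higher in sons. Of 32 tested glutathione S-transferases, 18 were higher and 7 lower, with GstD2 at 3.04 and GstE13 at -1.83, while the abundant GstD1 was not called (0.04).

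Of 10 circadian clock genes, 7 were higher and 2 lower in sons. Vri, a repressor of Clk, averaged 209 CPM in sons and 40.5 CPM in daughters (2.37), tim differed by 1.81 ± 0.12 (adjusted p = 1.12e-07) and per by 1.55. The genes lower in sons were dco, the kinase that acts on Per (-2.3), and cyc, the partner of Clk (-1.4). The sources used here do not give the hour at which flies were collected. All 17 tested cuticle protein genes were higher in sons, of 98 listed, the rest having too few reads. Of the 4 tested Turandot stress peptides, 3 were higher, with TotX at 27 ± 16.1 CPM in sons and 3.98 ± 1.65 CPM in daughters (2.75 ± 0.43; adjusted p = 1.04e-04).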
